A study of Rattus norvegicus with 6 samples.

Results

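The carbonic anhydrases are zinc enzymes that interconvert carbon dioxide and bicarbonate. The 10 genes described here are Car1, Car2, Car3, Car4, Car5a, Car5b, Car7, Car8, Car13 and Car14, chosen by name, and every array probe whose accession belongs to them was taken, which gave 14 of 61657 probes and 10 of the 15284 genes with a symbol. The family was put forward with results of these data known, since Car7 had already stood out as lower in treated livers. Car7 is therefore given as a description with no test.

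Liver RNA came from male Sprague-Dawley rats that were 5 weeks old at purchase. A control group of 3 rats received corn oil, the vehicle, and a treated group of 3 rats received o-anthranilic acid at 1000 mg/kg/day. Anthranilic acid is an aromatic amine and carboxylic acid that also arises from tryptophan in the kynurenine pathway. The labels give the dosing time as 9 weeks in 1 place and as 28 days in another, and each rat has 1 single-colour Agilent array.

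In liver, carbonic anhydrases sit in several compartments. Car5a in the mitochondrial matrix makes bicarbonate for carbamoyl phosphate synthetase, the entry step of the urea cycle, and for pyruvate carboxylase in gluconeogenesis. Cytosolic isozymes such as Car2 and Car3 and membrane isozymes such as Car14 handle bicarbonate and protons outside the mitochondria. The cytosolic genes Car2, Car3, Car1 and Car13 follow each other in this order on chromosome 2, with 0 other protein-coding genes between neighbours in the RefSeq table of the GRCr8 assembly.

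The promoters of Car7 and Car5a are shown because these were the members measured on all 6 arrays whose treated and control signals did not overlap. Of all tested genes, 19.8% did not overlap in either direction, so this only served to choose which promoters to print. RefSeq promoter windows (250 bases before to 50 after the start of the gene, GRCr8) were matched for 5 of the 10 members. The Car7 window is chr19:444865-445164 on the minus strand and the Car5a window is chr19:66911437-66911736 on the minus strand. Both are printed 5′ to 3′, and capitals mark matches to GGGCGG, the GC box that Sp1-type factors bind.
Car7: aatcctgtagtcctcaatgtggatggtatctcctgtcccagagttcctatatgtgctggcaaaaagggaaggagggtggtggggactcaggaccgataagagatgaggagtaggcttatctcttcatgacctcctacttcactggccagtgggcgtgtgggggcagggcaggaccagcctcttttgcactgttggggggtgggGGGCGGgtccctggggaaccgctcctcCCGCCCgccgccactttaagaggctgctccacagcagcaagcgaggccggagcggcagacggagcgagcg
Car5a: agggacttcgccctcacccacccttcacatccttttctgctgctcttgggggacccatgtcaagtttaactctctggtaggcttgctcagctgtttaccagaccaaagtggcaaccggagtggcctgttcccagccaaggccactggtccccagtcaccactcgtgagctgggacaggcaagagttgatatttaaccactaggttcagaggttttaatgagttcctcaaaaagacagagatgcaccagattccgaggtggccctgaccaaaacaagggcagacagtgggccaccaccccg
The GC box was searched on both strands, as were the TATA box (letters TATAAA) and the CCAAT box. The Car7 window held 2 non-overlapping GC box matches, starting 47 bases before the gene start on the same strand and 20 bases before it on the opposite strand, and 0 matches to the other motifs. The Car5a window held 0 matches to each of the 3 motifs. Of all 33469 promoter windows, 33.1% held the letters of the GC box, 14.2% those of the TATA box and 37.5% those of the CCAAT box. The Car7 window had 13 CG dinucleotides and the Car5a window 5, against a median of 7 over all windows.

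By the call of the scanner software, each array had 53.3% to 58.0% of its probes well above background, and 0 spots were saturated. Liver identity was checked on 10 hepatocyte markers, all of which were above background on all 6 arrays. Of these, 9 stood below 0 (anthranilic acid minus corn oil), with a median log2 difference of -0.09 and 0 passing limma's test over all probes. At an unadjusted p under 0.05, 1 was lower, where 6.15% of all genes were. In 5 of the 10 the treated signals lay below those of corn oil without overlap, where 9.13% of all genes did so in that direction. Their summed signal, in units of the 75th percentile of the array, was 4930 to 5150 in corn oil and 4660 to 4820 in treated livers, and their part in the carbonic anhydrase values was not tested. Per the file headers, 5 arrays lay on slide 1, with the 3 corn oil arrays in row 1 and anthranilic acid replicates 1 and 2 in row 2, and anthranilic acid replicate 3 lay on slide 2. Row and treatment therefore cannot be told apart on slide 1. As slide 2 holds a single array, a block for slide gave the same member differences as leaving out anthranilic acid replicate 3. It does not separate row from treatment.

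Of the 10 carbonic anhydrases, 7 were detected in liver on all 6 arrays: Car1, Car2, Car3, Car5a, Car7, Car8 and Car14. Car5b was above background on the 3 corn oil arrays and on 0 treated arrays. Car4 and Car13 were not well above background on any array. In probes, 8 of 14 were well above background on all 6 arrays and 5 on none, where 50.9% and 36.5% of all probes on the array did so. Brightness depends on the probe as well as on the RNA, so the isozymes are not ranked against each other by signal.

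**Figure D1:**
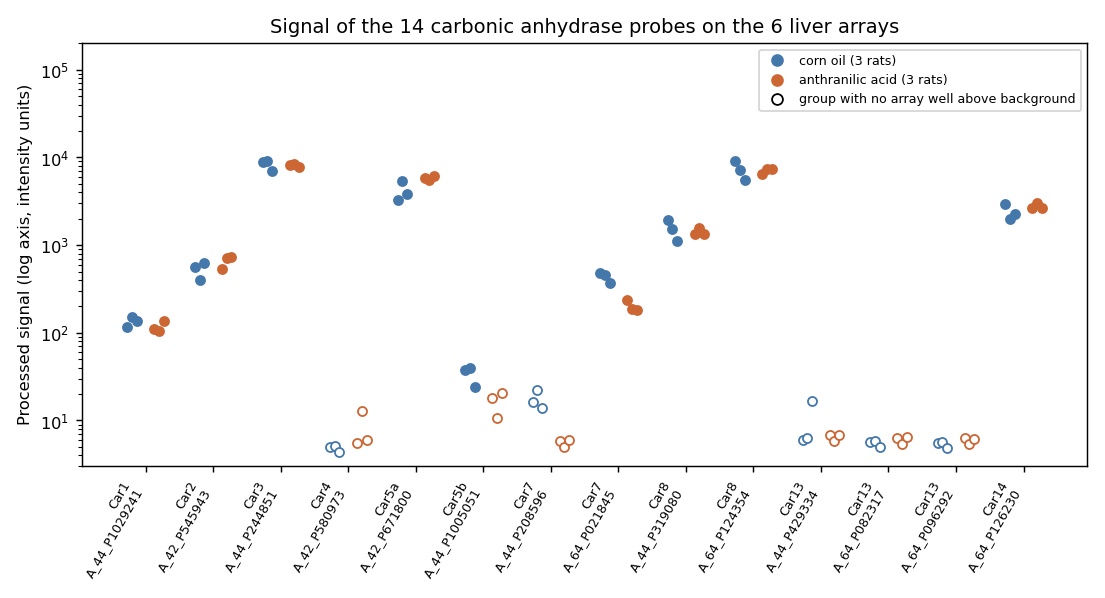
Processed signal (intensity, log axis) of the 14 carbonic anhydrase probes on the 6 liver arrays, 3 corn oil rats in blue and 3 anthranilic acid rats in orange, with open points for a group in which 0 arrays were well above background. Car4, Car13 and a probe of Car7 are open in both groups, and Car5b is open in the treated group only.

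Car4, a membrane-anchored isozyme known from capillary endothelium and kidney, had a single probe with processed signals of 4.38 to 13. The dimmest detected probe of an array had a signal between 20.5 and 28.0. Car13, a cytosolic isozyme, had 3 probes with signals of 5.86 to 16.6, 4.96 to 6.53 and 4.87 to 6.36. The probe A_44_P208596 of Car7 was also dim, at 13.9 to 22.2 in corn oil and 4.93 to 5.95 in treated livers, and was not well above background on any array. These 5 probes were not tested, and a dim probe does not show that the RNA is absent.

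Apart from Car7, 8 probes of 7 carbonic anhydrases were tested, and 0 passed limma's test at an adjusted p under 0.05, where 0.0329% of all 33428 tested probes did. By the brightest tested probe of each gene, these 7 genes had a median log2 difference (anthranilic acid minus corn oil) of 0.03, against 0.01 over all 10257 tested genes. There were 5 genes above 0 and 2 below. At an unadjusted p under 0.05 there were 2 of the 7, Car5a above 0 and Car5b below, where 11.6% of all genes did so. The treated and control signals of Car5a did not overlap, as was so for 19.8% of all genes in either direction. Those of Car5b did not overlap either, but its treated readings were not well above background, and it was tested only through its brighter corn oil group, so nothing is read from these counts.

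Car7, a cytosolic isozyme best known from brain, stood lower in the livers of treated rats. All values by rat are log2 signals relative to the 75th percentile of the array. At probe A_64_P021845 the signal was -0.11, -0.20 and -0.46 in the 3 corn oil rats and -1.13, -1.44 and -1.44 in the 3 treated rats. Every treated rat lay below every corn oil rat, as was so for 9.13% of all tested genes. The means were -0.26 ± 0.18 (SD, n = 3) and -1.34 ± 0.18 (SD, n = 3), a difference of -1.08 (SE 0.14), or 2.11-fold lower. With slide as a block the difference was -1.03, and leaving out each array in turn gave -1.18 to -1.01. With normexp background correction it was -0.82. In bulk liver, fewer cells that make an RNA and less of that RNA per cell cannot be told apart, here and in all comparisons that follow.

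**Figure D2:**
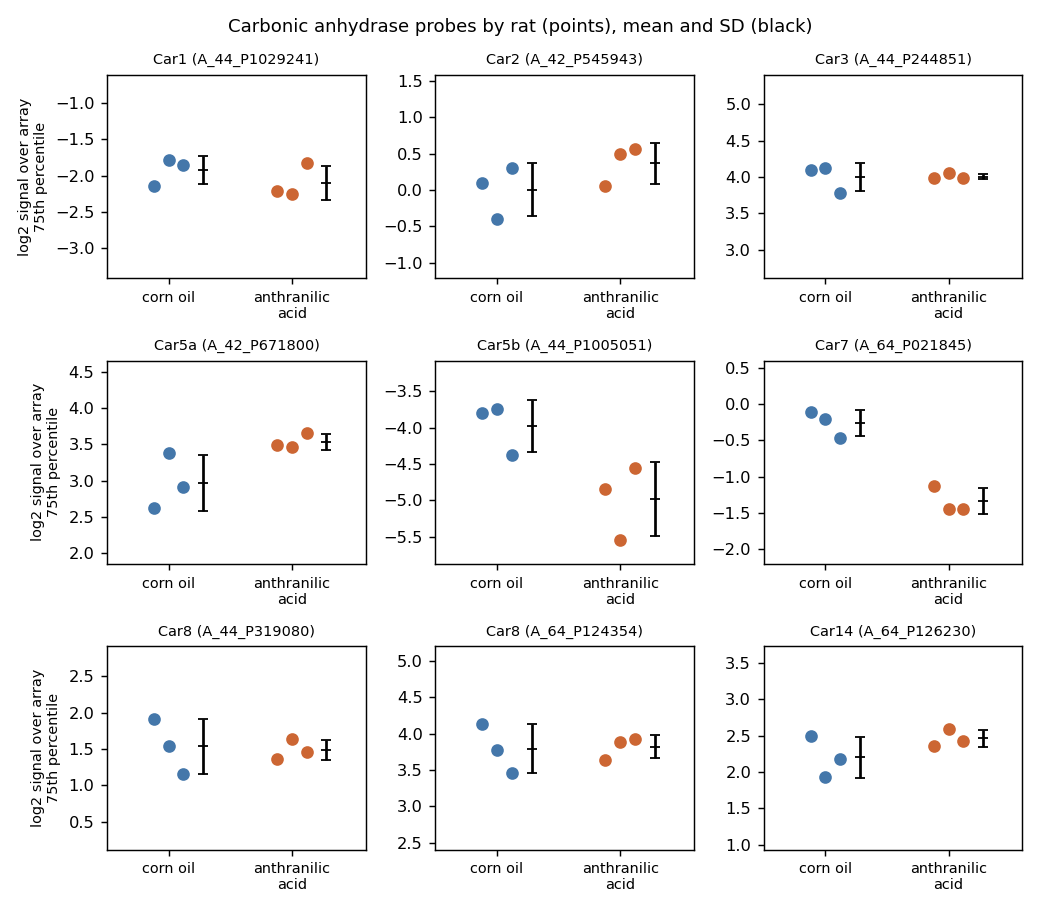
Log2 signal relative to the 75th percentile of the array for the 9 carbonic anhydrase probes that were fitted, with 1 point per rat and the mean and SD (n = 3) in black. Every panel spans the same log2 range, and the groups separate for Car5a and Car7, while the treated points of Car5b are readings not well above background.

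Car5a, the liver's mitochondrial isozyme, was brighter in treated livers without passing the test. Its probe A_42_P671800 read 2.62, 3.38 and 2.91 in corn oil and 3.49, 3.46 and 3.66 in treated rats. Every treated rat lay above every corn oil rat, although corn oil replicate 2 came close to the treated group. The difference was 0.56 (SE 0.20, limma adjusted p = 0.370), a ratio of 1.48 with a 95% confidence interval of 1.06 to 2.05 that is not corrected for the number of probes. It was 0.50 with slide as a block (adjusted p = 0.510), and 0.39 to 0.77 when each array was left out in turn.

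Car5b, the other mitochondrial isozyme, was near the limit of detection. Its only probe, A_44_P1005051, read -3.80, -3.74 and -4.38 in corn oil and -4.84, -5.55 and -4.56 in treated rats. The treated signals were not well above background on any array, so the size of the difference is uncertain. Each treated reading was raised, where lower, to the dimmest detected probe of its array, and the corn oil mean was then 1.25-fold higher. This ratio is not a sure minimum, as the probe was tested only through its brighter corn oil group. Corn oil replicate 3, with a processed signal of 24.1, itself lay below the dimmest detected probes of anthranilic acid replicates 1 (26.9) and 3 (28.0). The fitted difference of -1.01 (SE 0.30, limma adjusted p = 0.319) shrank to -0.18 with normexp background correction, and was -1.22 with slide as a block.

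Among the cytosolic isozymes of the chromosome 2 cluster, Car3 differed least between the groups. Car3 has low hydratase activity, is abundant in muscle and fat, and is known as a male-predominant product of rat liver. Its probe A_44_P244851 read 4.09, 4.13 and 3.78 in corn oil and 3.98, 4.05 and 3.99 in treated rats. The treated values lay within the range of the controls. The difference was 0.01 (SE 0.12, limma adjusted p = 0.984) with a 95% confidence interval of -0.27 to 0.29, that is, a ratio of 0.829 to 1.22, and its sign depended on the scaling (-0.04 with quantile normalisation).

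Markers of muscle and fat were read beside Car3. Of 11 skeletal muscle markers with a probe, 3 were above background on all 6 arrays, and Acta1, Myh1, Myh4 and Tnnt3 were not above background on any. The 4 that were tested stood below 0, with a median of -0.34 and 0 passing over all probes. Of these, 2 were lower at an unadjusted p under 0.05, where 6.15% of all genes were. In 3 of the 4 the treated signals lay below those of corn oil without overlap, where 9.13% of all genes did so. The summed signal of the list, in units of the 75th percentile of the array, was 1.39 to 1.56 in corn oil and 1.21 to 1.38 in treated livers. Of 5 adipocyte markers with a probe, Adipoq was above background on 0 arrays, and only Cfd, the secreted protease adipsin, was above it on all 6, with means of 3.20 in corn oil and 2.94 in treated livers. The adipocyte sums were 7.84 to 11.1 and 6.23 to 9.73. The part of muscle and fat RNA in the Car3 value was not tested. Of 7 sex-patterned liver genes, 6 were tested, 2 above 0 and 4 below, with a median of -0.19 and 0 passing over all probes, against 2 at unadjusted p under 0.05, both lower, where 11.6% of all genes reached that level and 6.15% did so in the lower direction. Cyp2c13, a male-predominant cytochrome P450, stood at 0.34, whereas Cyp3a2, also male-predominant, stood at -0.67 and Cyp2c12, a female-predominant cytochrome P450 that was nevertheless above background here, at -1.32 (limma adjusted p = 0.437, 0.387 and 0.371). These cytochromes have closely similar copies, so the assignment of their signals is uncertain.

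Car2, the high-activity cytosolic isozyme of red cells, kidney and bile duct cells, overlapped between the groups. Its probe A_42_P545943 read 0.10, -0.40 and 0.31 in corn oil and 0.05, 0.49 and 0.57 in treated rats. Corn oil replicate 2 was the lowest of the 6. The difference was 0.37 (SE 0.22, limma adjusted p = 0.527) with a 95% confidence interval of -0.17 to 0.91, and it was 0.17 without corn oil replicate 2.

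Car1, the abundant isozyme of red cells, also overlapped. Its probe A_44_P1029241 read -2.14, -1.78 and -1.86 in corn oil and -2.21, -2.26 and -1.83 in treated rats. The difference was -0.18 (SE 0.16, limma adjusted p = 0.671) with a 95% confidence interval of -0.56 to 0.21. It was -0.06 with normexp background correction. Leaving out 1 array gave -0.31 (without anthranilic acid replicate 3, the same as with slide as a block) to -0.09 (without anthranilic acid replicate 2). Car1 and Car2, which both occur in red cells, thus stood on opposite sides of 0, and neither difference passed the test.

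Erythroid markers were read beside Car1 and Car2. Of 12 listed, 10 had a probe, 8 were tested and 7 of these stood above 0, with a median of 0.36 and 0 passing over all probes or at unadjusted p under 0.05. The summed signal was 823 to 1440 in corn oil and 1200 to 1600 in treated livers, in units of the 75th percentile of the array. The part of red cell RNA in the Car1 and Car2 values was not tested. Of 5 cholangiocyte markers with a probe, all 5 were tested, 4 above 0 and 1 below, with a median of 0.38 and 0 passing over all probes. At an unadjusted p under 0.05, 1 was higher and 1 lower, where 5.47% and 6.15% of all genes were. The summed signals were 1.14 to 1.55 in corn oil and 1.16 to 1.47 in treated livers. The part of bile duct cell RNA in the Car2 value was not tested.

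Car14, a transmembrane isozyme whose active site faces the outside of the cell, had a single probe, A_64_P126230. It read 2.49, 1.93 and 2.18 in corn oil and 2.36, 2.59 and 2.43 in treated rats. The ranges overlapped, with 2 corn oil rats below all treated rats. The difference was 0.26 (SE 0.16, limma adjusted p = 0.527) with a 95% confidence interval of -0.12 to 0.64, and it was 0.12 without corn oil replicate 2 and 0.40 without corn oil replicate 1.

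Car8 is a carbonic anhydrase-related protein that lacks the catalytic activity of the family, and its 2 probes behaved alike. Probe A_64_P124354 read 4.14, 3.78 and 3.46 in corn oil and 3.64, 3.89 and 3.93 in treated rats. Probe A_44_P319080 read 1.91, 1.54 and 1.16 in corn oil and 1.36, 1.64 and 1.46 in treated rats. At both probes the 3 treated rats lay within the range of the 3 corn oil rats, and corn oil replicate 1 was highest and corn oil replicate 3 lowest. The differences were 0.03 (SE 0.19, limma adjusted p = 0.965) and -0.05 (SE 0.20, limma adjusted p = 0.937).

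The spread among corn oil rats exceeded that among treated rats for several members. The SD (n = 3) was 0.38 against 0.11 for Car5a, 0.19 against 0.04 for Car3, 0.28 against 0.12 for Car14 and 0.34 against 0.16 for Car8 probe A_64_P124354. For Car7 it was 0.18 in both groups, and for Car5b and Car1 it was larger in treated rats, at 0.51 against 0.36 and 0.24 against 0.19. These differences in spread were not tested.

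**Figure D3:**
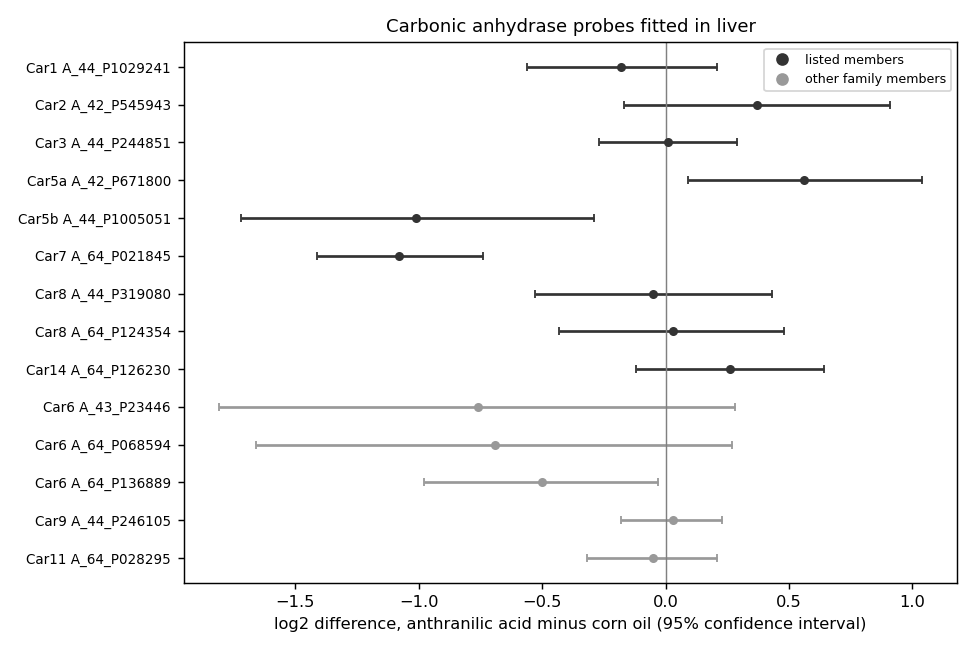
Log2 difference (anthranilic acid minus corn oil, 3 rats per group) with the 95% confidence interval of the fit, not corrected for the number of probes, for the 9 fitted probes of the listed members (dark) and the 5 tested probes of other family members (grey). The intervals of Car3 and Car8 lie on both sides of 0, and that of Car7, which led to the choice of the family, is shown as a description.

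Other genes of the family and of bicarbonate handling were taken from lists, and 0 of their genes passed over all probes by limma. Among 8 other carbonic anhydrases and related proteins, 4 were tested, 1 above 0 and 3 below, with a median of -0.10 and 0 at unadjusted p under 0.05. Car6, the secreted isozyme of saliva, stood at -0.76 (SE 0.43, limma adjusted p = 0.502), and its dimmer probes at -0.69 and -0.50. The groups overlapped at the first of these dimmer probes. At the other, A_64_P136889, they did not overlap (limma unadjusted p = 0.0419, adjusted p = 0.397), as was so in the lower direction for 9.13% of all genes. This probe was above background on 2 of the 3 treated arrays. It was tested only through its brighter corn oil group, so nothing is read from its p or its lack of overlap. Car6 at probe A_43_P23446 read -0.75, -0.42 and -1.13 in corn oil and -0.67, -1.55 and -2.37 in treated rats, so the groups overlapped there and the SD was 0.36 in corn oil and 0.85 in treated rats. Ptprg, a receptor phosphatase with a carbonic anhydrase-like domain, stood at -0.14 and Car11, a related protein without activity, at -0.05. Car9, a hypoxia-induced membrane isozyme, stood at 0.03, and Car12 and Car15 were not above background on any array.

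All 9 bicarbonate-fixing enzymes were tested, 6 above 0 and 3 below, with a median of 0.07, and 2 had an unadjusted p under 0.05, both higher, where 5.47% of all genes were higher at that level. These were Mccc2, a subunit of methylcrotonyl-CoA carboxylase of leucine breakdown, at 0.28 (SE 0.09, limma adjusted p = 0.339) and the acetyl-CoA carboxylase Acaca of fatty acid synthesis at 0.62 (SE 0.22, limma adjusted p = 0.371). Acacb, the mitochondrial acetyl-CoA carboxylase, stood at -0.31 and was above background on 4 arrays. The enzymes that Car5a is known to supply stood near 0, Cps1 of the urea cycle at 0.09 (SE 0.13, limma adjusted p = 0.799) and the pyruvate carboxylase Pc at -0.01 (SE 0.12, limma adjusted p = 0.971), beside 0.56 for Car5a.

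Of 23 transporters of bicarbonate, protons, ammonium and lactate, 14 were tested, 9 above 0 and 5 below, with a median of 0.17. At an unadjusted p under 0.05 there were 4, all lower in treated livers, where 6.15% of all genes were lower at that level. Of the 14 tested, the treated signals lay below those of corn oil without overlap in 4, where 9.13% of all genes did so. In 1 the treated signals lay above those of corn oil without overlap, where 1094 of all 10257 tested genes did so. The 4 below were the same genes as the 4 with the small p, so their lack of overlap is not a separate result. Slc4a4, an electrogenic sodium bicarbonate cotransporter, stood at -0.31 (SE 0.08, limma adjusted p = 0.300), and its other 2 probes both at -0.33. Slc16a1, the monocarboxylate transporter of lactate, stood at -0.27 (SE 0.08, limma adjusted p = 0.336). Rhbg, an ammonium transporter known from hepatocytes around the central vein, stood at -1.0 (SE 0.34, limma adjusted p = 0.364), and the anion exchanger Slc4a2 at -0.27 (SE 0.10, limma adjusted p = 0.378).

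**Figure D4:**
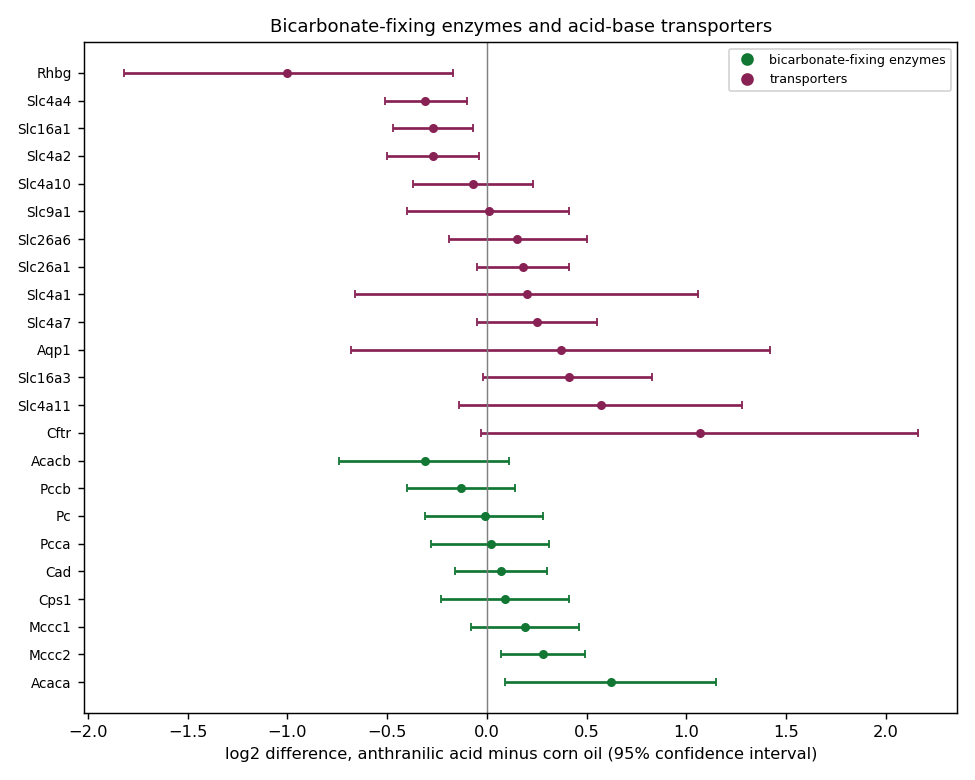
Log2 difference (anthranilic acid minus corn oil, 3 rats per group) with the 95% confidence interval of the fit, not corrected for the number of probes, for 14 transporters and 9 bicarbonate-fixing enzymes. Rhbg, Slc4a4, Slc16a1 and Slc4a2 have intervals below 0 and Mccc2 and Acaca above 0, and 0 of the 23 genes passed after adjustment over all probes.

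The genes whose signal ran most like that of Car7 over the 6 arrays were named by Pearson's r among 9838 other genes above background on all arrays. Slc4a4 had the highest r (0.994), followed by the transcriptional repressor Klf11 (0.993) and the endosomal protein Rufy1 (0.992). Slc4a4 read 2.71, 2.63 and 2.59 in corn oil and 2.40, 2.29 and 2.32 in treated rats. As for Car7, every treated rat lay below every corn oil rat, and the differences were smaller, at -0.31 for Slc4a4, -0.50 for Klf11 and -0.19 for Rufy1. The 6 arrays share the group difference and the genes were picked for their high r, so no p is given. For Car3 the closest included Cd320 (0.969) and Tpd52l2 (0.968), with differences of 0.00 and 0.04.

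**Figure D5:**
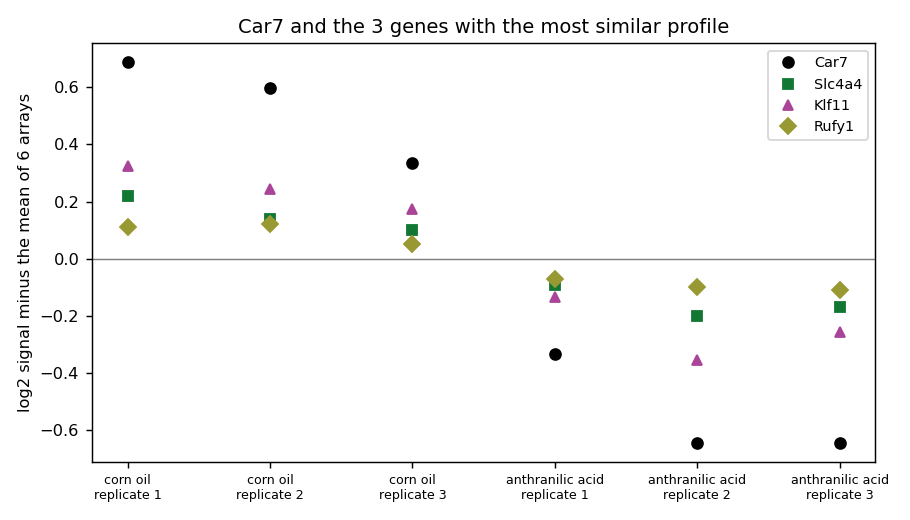
Log2 signal minus the mean of the 6 arrays for Car7 and the 3 genes with the highest Pearson's r to it, by array. All 4 genes lie above 0 on the 3 corn oil arrays and below 0 on the 3 anthranilic acid arrays, with the widest span for Car7.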

How the data were processed

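RNA from 6 rat livers, 3 per group, was measured on single-colour (Cy3) Agilent arrays. Per the file headers, the deposited intensity of each spot comes from Agilent Feature Extraction 10.7.1.1 (version 10.7 per the submitters' processing notes), with background and spatial trends subtracted. The authors' deposited value table holds a ratio of that signal to a value per array within 0.126% of its 75th percentile, and how it was made is otherwise not given in the sources used here.

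The processed intensity was log2-transformed and the 75th percentile of non-control probes subtracted per array. Control spots and 14 outlier spots were left out. To be tested, a probe had to be well above background in all 3 rats of a group, with 2 or more unflagged spots in either group. Accessions matched a symbol for 27460 of 61657 probes (44.5%), through the RefSeq gene table of GRCr8. The headers name rn4, so only names, gene order and the promoter windows were taken from the GRCr8 tables, and the windows are given in GRCr8. The brightest tested probe represented a gene.

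The treated group was set against corn oil by limma (version 3.58.1, R 4.3.3, lmFit and eBayes, two-sided), with Benjamini-Hochberg adjustment over 33428 probes. The procedure was also run on simulated data. The number of arrays limits the precision. The members and lists were chosen with earlier results of these data known. The text names every probe of the members, the 3 genes of each bicarbonate, family and sex-patterned list with the smallest p, and the 3 closest profiles to Car3 and Car7, except for items that are not reported here. Slc4a2, Cps1, Pc, Car9, Car12, Car15, Cfd and genes given as not above background were named after their values were seen. Labels call the samples replicates of different animals. The p-values set the group difference against the spread between these animals, which limma moderates with that of all tested probes.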

Additional observations from a re-analysis of the deposited data

How the results depend on the processing

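The count of carbonic anhydrase probes past the threshold was 0 in all 17 alternatives that gave a count, so no alternative changed a call. The count includes the brighter probe of Car7, which led to the choice of the family, and it is not read as a test of Car7. The count over all probes, 11 in the main analysis, was 50 with normexp background correction, 21 with median scaling, 45 with a trended robust variance, 18 with array weights, 6 with slide as a block, 2 without a filter on dim probes and 2 with only probes above background on all 6 arrays. Leaving out 1 array gave 4 to 21, with 4 without corn oil replicate 1, 7 without anthranilic acid replicate 2, 19 without anthranilic acid replicate 3 and 21 without corn oil replicate 3. The causes were not tested. With the replicate number as a block the count was 2. Each such block holds 1 array of each group, so it cannot change a member difference, and the -1.08 of Car7 is not checked by it. Same-numbered arrays deviated together with r = 0.07, -0.05 and -0.04, and the other pairs of a corn oil and a treated array with r from -0.13 to 0.16. The labels do not state that the numbers pair the rats, and 3 arrays per group are too few to settle it.

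Of 160 member values under alternatives, 145 kept their direction. The other 15 concern Car3 and Car8, which lay near 0. Many of the 145 could not have reversed. Changes of the dim-probe filter, the trended robust variance and the replicate block leave each member difference as in the main analysis. The deposited value table has nearly the same scaling, and slide as a block repeats leaving out anthranilic acid replicate 3. For a gene with 1 tested probe, the mean of its probes is that probe. The 145 are therefore not separate checks. Car3 was -0.02 with the percentile over probes above background, -0.04 with quantile normalisation and -0.03 with array weights, and -0.10 to 0.07 with 1 array left out. Car8 probe A_64_P124354 was -0.02 with quantile normalisation and with array weights, -0.03 with slide as a block and -0.01 for the mean of its probes, and -0.14 to 0.20 with 1 array left out. Car8 probe A_44_P319080 was 0.00 with median scaling and -0.24 to 0.14 with 1 array left out. Car5b could not be evaluated with only probes above background on all arrays. Signal over background limits Car4, Car5b, Car13 and 1 probe of Car7.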
